A study of Homo sapiens with 2 samples.

Results

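The tubulin isotypes described here are 10 genes, namely 4 alpha tubulins (TUBA1A, TUBA1B, TUBA1C and TUBA4A), 5 beta tubulins (TUBB, TUBB2A, TUBB2B, TUBB3 and TUBB6) and the gamma tubulin TUBG1. They were chosen by name from a deposited expression table of 25436 gene symbols, and all 10 were found in it, each on 1 row. RNA sequencing had been done on HuES53 and HuES64, diploid human embryonic stem cell lines from embryos made by in vitro fertilization, which serve as controls in a study of haploid stem cells. Both lines were undifferentiated, at a passage below 20 per the labels, and carried no treatment or engineered allele that the labels name. Each line has 1 library, so replicate spread is unknown, p-values are left out, and each difference describes the 2 libraries rather than the lines. Where the text gives a pair of values, HuES53 comes first.

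Microtubules are hollow polymers of alpha and beta tubulin, which fold with the help of chaperones and join as a heterodimer before they assemble. Vertebrate genomes hold several genes for each class, called isotypes, whose proteins are nearly alike except for an acidic tail at the carboxy end, where motors and modifying enzymes act. Gamma tubulin sits in a ring complex at the centrosome and starts new microtubules. Cells with excess free tubulin destroy tubulin mRNA during translation. The factor TTC5 recognises the first residues of a new alpha or beta tubulin as they leave the ribosome.

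The start of each coding sequence is shown because it encodes the peptide that this feedback reads. The sequences come from GENCODE release 29 (GRCh38) and run 5′ to 3′ on the coding strand, with the first 4 codons in capitals.
TUBA1A: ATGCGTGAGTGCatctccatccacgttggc
TUBA1B: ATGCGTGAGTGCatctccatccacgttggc
TUBA1C: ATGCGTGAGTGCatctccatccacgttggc
TUBA4A: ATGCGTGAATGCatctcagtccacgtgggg
TUBB: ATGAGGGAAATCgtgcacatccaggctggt
TUBB2A: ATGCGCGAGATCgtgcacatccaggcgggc
TUBB2B: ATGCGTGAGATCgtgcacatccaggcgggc
TUBB3: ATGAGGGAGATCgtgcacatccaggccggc
TUBB6: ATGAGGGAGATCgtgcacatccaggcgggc
TUBG1: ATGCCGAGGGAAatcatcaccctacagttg
TUBA1A, TUBA1B and TUBA1C had 0 differences from each other over these 30 bases. TUBB2A and TUBB2B differed by C6T, counted from 1 at the A of the start codon with the TUBB2A base first. TUBB3 and TUBB6 differed by C27G, with the TUBB3 base first. The marked codons of TUBG1, which is not part of the heterodimer, were ATG, CCG, AGG and GAA.

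The end of the coding sequence encodes the tail, in which many but not all isotypes differ. It also shows how far reads can tell the genes apart. The last 60 coding bases follow for 4 of the beta isotypes, among them the pair closest in sequence, with the stop codon in capitals.
TUBB2A: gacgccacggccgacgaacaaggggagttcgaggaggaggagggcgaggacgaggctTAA
TUBB2B: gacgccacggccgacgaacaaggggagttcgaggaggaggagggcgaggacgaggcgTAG
TUBB: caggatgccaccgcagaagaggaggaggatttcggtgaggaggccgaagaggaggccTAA
TUBB3: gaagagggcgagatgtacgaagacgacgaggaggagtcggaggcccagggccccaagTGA
TUBB2A and TUBB2B had 2 differences over this stretch, T57G and A60G, counted from 1 at the first base shown. Neither changes the encoded tail, since gct and gcg are both alanine codons and TAA and TAG both stop codons. Over the whole coding sequence TUBB2A and TUBB2B were 98.1% identical, TUBA1A and TUBA1B 97.2%, TUBA1B and TUBA1C 96.8%, and TUBA1A and TUBA1C 95.9%. TUBB and TUBB3, by contrast, were 81.7% identical.

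These identities bear on the values of the close copies, since a read that fits several genes must be shared among them. Of all windows of 50 bases in the coding sequence of TUBB2B, 20.2% occurred in no gene elsewhere in the reference, pseudogenes included. The share was 21.5% for TUBB2A, and the windows that these neighbours had in common made up 72.4% of either coding sequence. In the alpha class it was 24.3% for TUBA1B, 41.4% for TUBA1A and 43.0% for TUBA1C. TUBB stood at 66.6%, sharing 29.2% of its windows with the pseudogene TUBBP1 and none with another tubulin isotype. TUBG1 stood at 64.3%, with 34.7% shared with TUBG2, the other gamma tubulin. TUBB3 (88.3%) and TUBB6 (98.5%) were mostly their own, and every window of TUBA4A was. Over the whole reference transcript the shares were higher: 34.5% for TUBB2A, 47.8% for TUBB2B, 37.3% for TUBA1B, 48.2% for TUBA1A and 74.9% for TUBA1C. As far as shared windows go, the level of each close copy is therefore less certain than the sum over its group. This applies least to TUBA1C. Rows that overlap TUBA1A and TUBA1B, described below, are a separate limit. Adding them took the alpha sum from 2152 to 3248 FPKM in HuES53 and from 2345 to 3724 in HuES64.

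**Figure D1:**
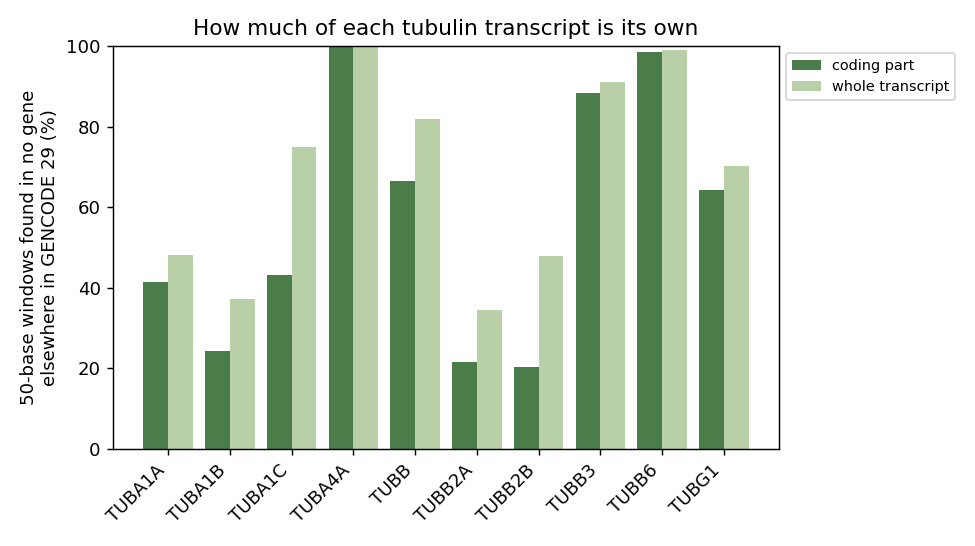
Share of 50-base windows (vertical axis, %) of each tubulin transcript that occur in no gene elsewhere in GENCODE release 29, for the coding part (dark bars) and the whole reference transcript (light bars). TUBB2A, TUBB2B and TUBA1B have the lowest coding shares, from 20.2% to 24.3%, and TUBA4A fills the axis.

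Values are FPKM, fragments scaled by transcript length and by library size, so levels of different genes can be set side by side within a library. Differences between the lines are on a log2(FPKM + 1) scale, HuES64 subtracted from HuES53. Depth was estimated from the scale at which the lowest values of 21 and 12 short receptor genes mostly fell near whole fragment numbers. That scale put 1 FPKM over 1 kb at about 18.5 fragments in HuES53 and 15.2 in HuES64. On that estimate the member with the fewest fragments, TUBA4A, rested on about 1332 and 971. Both lines carried stem cell genes at high level, all 8 of the listed markers having a mean above 1 FPKM, with POU5F1 at 1053 and 1381 FPKM, TDGF1 at 723 and 528, and DNMT3B at 521 and 376. SALL4 (42.1 and 24.9 FPKM) and ZFP42 (99.9 and 57.0 FPKM) differed most in that list.

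TUBB, the beta isotype of nearly all dividing cells, was the highest member. It was measured at 1467 FPKM in HuES53 against 1454 in HuES64, a difference of 0.013, and ranked 49 and 73 among all symbols. Its locus is chromosome 6, 30688157 to 30693199, and no other row overlaps it. TUBB alone made up 45.5% of the summed FPKM of the 9 beta rows in HuES53 and 44.0% in HuES64. The genes outside the family nearest to TUBB in both lines, by Euclidean distance on the log2(FPKM + 1) scale over these 2 libraries, were PRDX1 (1400 and 1395 FPKM), HSP90AB1 (1405 and 1316 FPKM) and HMGA1 (1535 and 1710 FPKM).

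TUBB2A and TUBB2B came next among the beta isotypes, both known for high expression in brain. TUBB2A was measured at 472 FPKM in HuES53 against 525 in HuES64. TUBB2B, whose mutations cause malformations of the cerebral cortex, stood at 430 and 476 FPKM. The differences of these genes were nearly the same size, -0.15 for each. They lie 66.7 kb apart on chromosome 6 (3153900 to 3157783 and 3224495 to 3227968), with 1 other row between them. Because most of their coding windows are shared, a division of fragments between them cannot be checked in this table. A division between these genes leaves the sum of their shares of beta tubulin nearly as it is, and the separate shares were 14.6% and 13.3% in HuES53 and 15.9% and 14.4% in HuES64.

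TUBB3, the class III isotype widely used as a marker of neurons, was high in both undifferentiated lines. It was measured at 264 FPKM in HuES53 against 285 in HuES64, with a difference of -0.11, and ranked 348 and 383. TUBB3 accounted for 8.21% and 8.63% of beta tubulin FPKM. Its locus is chromosome 16, 89988417 to 90002505. No other row of the table overlaps it. The genes nearest to TUBB3 in level over these 2 libraries were CCNG1 (270 and 289 FPKM), HNRNPL (271 and 283 FPKM) and MARCKSL1 (256 and 284 FPKM).

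Other markers of neurons were mostly low beside this TUBB3 level. Of 10 neuron markers, 5 were under 1 FPKM in both lines, and the median was 0.813 FPKM in HuES53 and 0.724 in HuES64. The dendritic protein gene MAP2 stood at 0.242 and 0.304 FPKM and DCX, the doublecortin gene of migrating neurons, at 0.686 and 0.365. MAP2 and DCX fall outside the naming rule and were named after their values were seen. GAP43, a growth cone gene, was the exception at 74.9 and 38.1 FPKM, and it made up most of the summed level of the list (89.2 and 53.2 FPKM). STMN2 (3.80 and 5.90 FPKM) and RBFOX3 (3.70 and 4.15 FPKM) were low but above 1 FPKM. Of 6 neural progenitor markers, 3 were under 1 FPKM in both lines, while NES, an intermediate filament gene, stood at 66.3 and 71.0, FABP7 at 5.04 and 2.71, and PAX6 at 1.19 and 0.720. The part of such cells in the TUBB3 level was not tested, and in bulk RNA fewer cells of a type and less RNA per cell cannot be told apart.

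TUBB6, a beta isotype found at low level in many tissues and raised in regenerating muscle, was the lowest of the beta members. It was measured at 196 FPKM in HuES53 against 168 in HuES64, and its difference of 0.22 (1.16-fold) was the largest among members higher in HuES53. Its locus is chromosome 18, 12308257 to 12326568. Among the beta members TUBB6 also shared the fewest windows with other genes, which leaves its value least open to how reads were divided. Fibroblast markers, listed because cultures can hold such cells, gave no common direction: 4 of 6 were higher in HuES64, with a summed level of 214 FPKM in HuES53 and 231 in HuES64. COL3A1 (3.08 and 8.00 FPKM) was more than 2-fold different, COL1A1 stood at 138 and 168 FPKM, COL1A2 at 66.5 and 46.7, and PDGFRA at 2.15 and 1.13. Their part in the TUBB6 level was not tested.

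**Figure D2:**
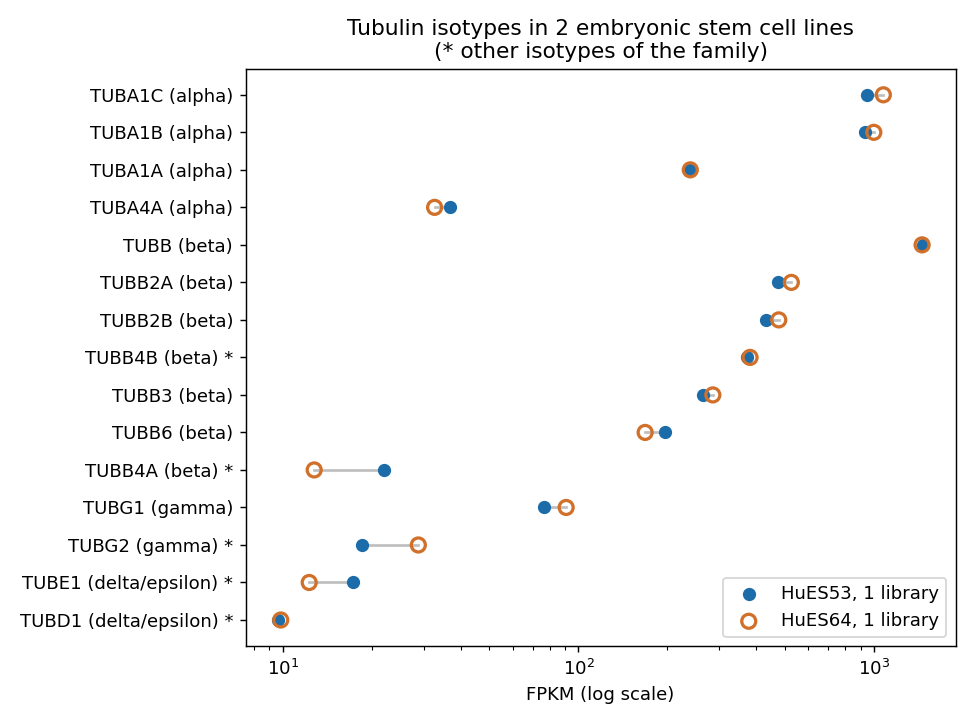
FPKM (horizontal log axis) of the 15 tubulin isotypes whose mean reached 1 FPKM in HuES53 (filled points) and HuES64 (open circles), 1 library each, grouped by class; a star marks isotypes outside the 10. The points of TUBB and TUBA1A nearly coincide, and the widest gaps belong to the starred TUBB4A and TUBG2.

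TUBA1C and TUBA1B were the leading alpha tubulins and close to each other in level. TUBA1C was measured at 945 FPKM in HuES53 against 1075 in HuES64, a difference of -0.19. TUBA1B stood at 931 and 998 FPKM, a difference of -0.10. TUBA1C made up 43.9% and 45.8% of the summed FPKM of the 9 alpha rows, and TUBA1B made up 43.3% and 42.6%. TUBA1C was the higher of them in both libraries, by less than the amount that the overlapping rows described next would add. TUBA1A, the main alpha tubulin of developing neurons, was lower, at 238 FPKM in HuES53 and 239 in HuES64. The difference of TUBA1A was -0.0038 in the deposited values, 0.24 with TPM scaling and 0.11 once the GC and length trend was removed. These 3 genes lie in a row on chromosome 12: TUBA1B at 49521565 to 49525304, TUBA1A at 49578582 to 49582861 and TUBA1C at 49658865 to 49667113.

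The table also holds uncharacterised rows over 2 of the alpha genes. LOC100288366 (chromosome 12, 49514157 to 49527171) spans TUBA1B and was listed at 866 FPKM in HuES53 and 1137 in HuES64. LOC100289104 (chromosome 12, 49578578 to 49583095) spans TUBA1A and was listed at 230 and 242 FPKM. Each of these rows thus had a level close to that of the tubulin it covers. Whether fragments were divided between the overlapping rows or counted for both is not given in the sources used here. Added to their genes, which was decided after the values were seen, they brought TUBA1B to 1796 and 2135 FPKM and TUBA1A to 469 and 481. TUBA1B then held 55.3% and 57.3% of alpha tubulin FPKM, against 29.1% and 28.9% for TUBA1C. The difference of TUBA1B moved from -0.10 to -0.25.

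The ratio of alpha to beta tubulin mRNA depended on those same rows. Summed over all isotypes, alpha tubulin was measured at 2152 FPKM in HuES53 against 2345 in HuES64, and beta tubulin at 3223 and 3302. The ratio of alpha to beta was 0.668 and 0.710. With the overlapping rows added it was 1.01 and 1.13. The ratio was higher in HuES64 under either sum, with no replicate to set the gap against.

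**Figure D3:**
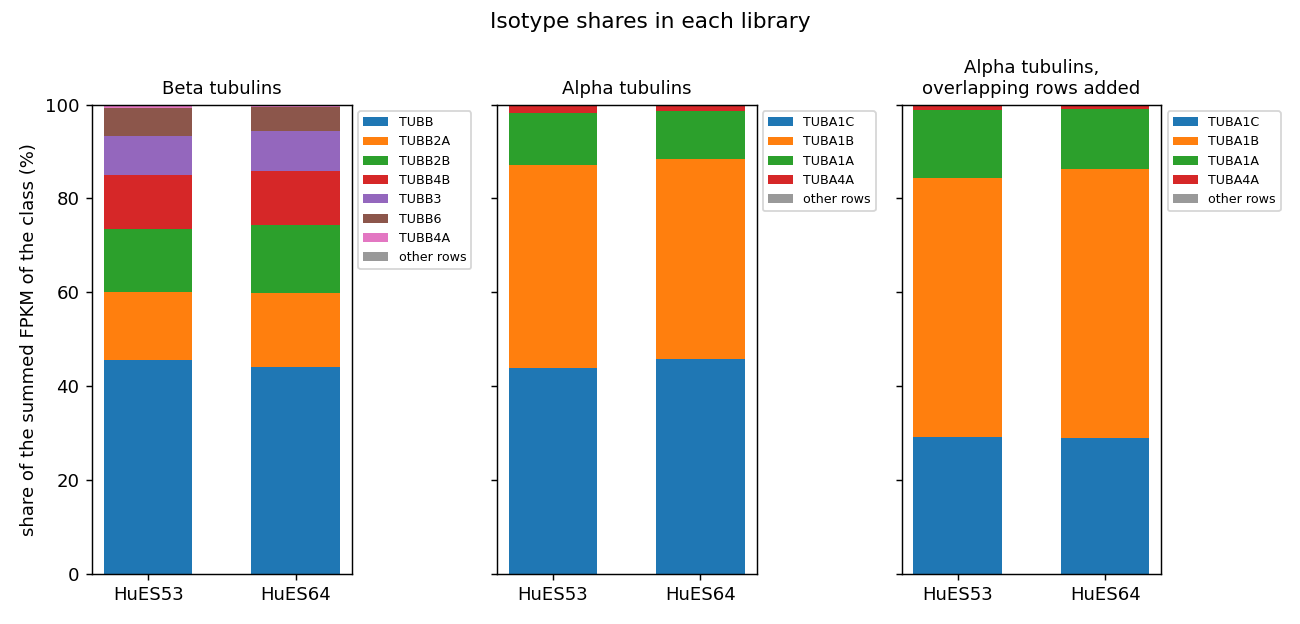
Share of each isotype in the summed FPKM of its class (vertical axis, %) in the 2 libraries, for beta tubulins, for alpha tubulins as listed, and for alpha tubulins with the rows that overlap TUBA1A and TUBA1B added. The bars of the lines are alike within each panel, and the share of TUBA1B grows from 43.3% to 55.3% in HuES53 when the rows are added.

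TUBA4A, an alpha isotype known from platelets and nerve, was the lowest member. It was measured at 36.8 FPKM in HuES53 against 32.6 in HuES64, a difference of 0.17, and made up 1.71% and 1.39% of alpha tubulin. Its locus (chromosome 2, 220115001 to 220118638) overlaps the kinase gene STK16 (11.3 and 14.1 FPKM) and TUBA4B (0.5001 and 0.999 FPKM). None of its coding windows occurred in a gene elsewhere in the reference.

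TUBG1, the gamma tubulin of dividing cells, had the largest difference of the 10 members in the deposited values. It was measured at 76.5 FPKM in HuES53 against 90.9 in HuES64, a difference of -0.25 (1.19-fold). The difference of TUBG1 was -0.0018 with TPM scaling and -0.035 once the GC and length trend was removed, where TUBB6 had the largest, 0.46 and 0.39. Its close copy TUBG2, 44.0 kb away on chromosome 17, stood at 18.5 and 28.7 FPKM. TUBG1 thus made up 80.5% of gamma tubulin FPKM in HuES53 and 76.0% in HuES64. The TUBG1 locus (chromosome 17, 40761358 to 40767256) overlaps the end of FAM134C, which was listed at 13.6 and 15.5 FPKM.

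None of the 10 members was 2-fold different between the lines, where 3.86% of the 13790 genes whose mean reached 1 FPKM were, 2.15% higher in HuES53 and 1.7% higher in HuES64. All 10 passed that filter. The median member difference was -0.10, beside 0.026 for all genes tested. For genes whose mean was at least that of TUBA4A, the median difference was -0.13, and the member median was not below it. Those genes are not matched in level to most members, of which 8 in HuES53 and 7 in HuES64 ranked in the top 500. With the deposited values 3 members were higher in HuES53 and 7 in HuES64. With TPM scaling these counts were 9 and 1, and with the trend over GC content and transcript length removed 6 and 4. TPM scaling moved the median of all genes by 0.23, and relative to all genes the member median was -0.13 before it and -0.11 after. The largest member difference was 0.25 in size, and 43.5% of all genes tested lay within that size. Among the 2939 genes whose mean was at least that of TUBA4A, the lowest member, 48.1% did, and 65.3% were higher in HuES64 with the deposited values.

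**Figure D4:**
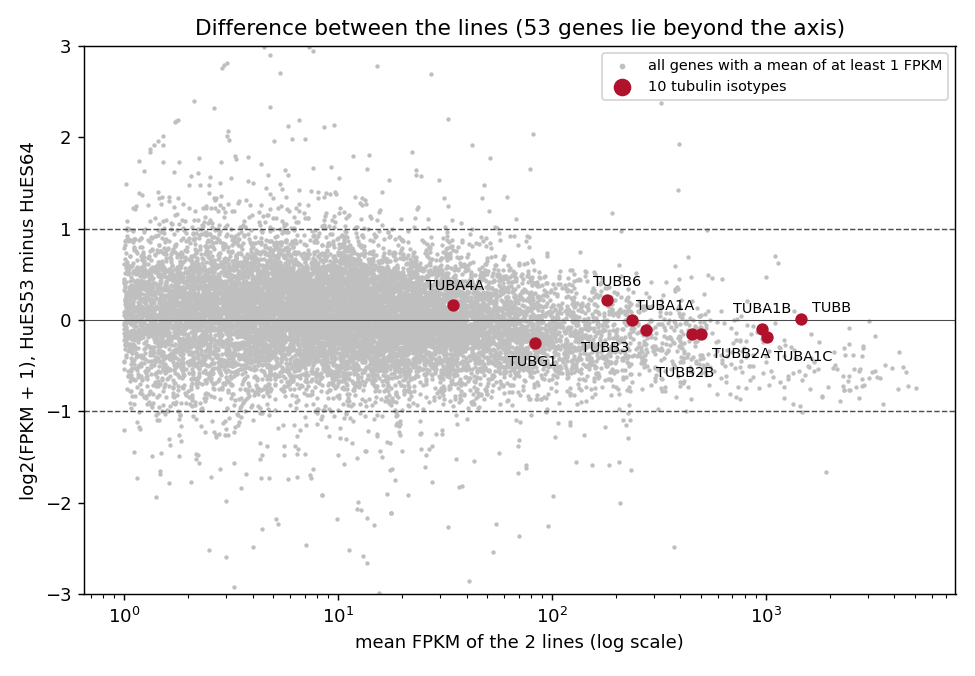
Difference between the lines (vertical axis, log2 of FPKM + 1, HuES53 minus HuES64) against the mean FPKM of both lines (horizontal log axis) for all 13790 genes (grey) and the 10 tubulin isotypes (red); dashed lines mark 2-fold and 53 genes lie beyond the axis. The tubulins lie between -0.25 and 0.22, inside the cloud of genes of similar level.

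The 12 other isotypes of the family were split between a few expressed genes and many near 0. TUBB4B, a beta isotype of cilia and of most tissues, listed under its older symbol TUBB2C, was measured at 372 FPKM in HuES53 against 381 in HuES64 and made up 11.5% of beta tubulin in either line. TUBB4A, a brain isotype listed as TUBB4, stood at 22.0 and 12.8 FPKM, a difference of 0.74. The centriole tubulins were low, with TUBD1 at 9.62 and 9.84 FPKM and TUBE1 at 17.2 and 12.3. The other 7 had a mean under 1 FPKM. Among them the oocyte and early embryo isotype TUBB8 stood at 0.574 and 0.752 FPKM, TUBA8 at 0.313 and 0.646, TUBA3D at 0.318 and 0.194, and TUBB1, of platelets, at 0.0807 and 0.0790. TUBA3C was listed at 0 in both lines, and TUBA3E (0.0798 FPKM) and TUBAL3 (0.178 FPKM) were listed at 0 in HuES64. Above a mean of 1 FPKM, TUBB4A, TUBG2 (-0.61) and TUBE1 (0.46) differed by more than any of the 10 members in the deposited values. TUBA8 (-0.33), below that mean, did so too. A pseudogene row, TUBBP5, stood at 2.53 and 0.397 FPKM, and it was picked out after its values were seen.

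Counts for the lists of related genes are set beside all genes tested, of which 47.5% were higher in HuES64 with the deposited values and 65.3% of those at least as high as TUBA4A. Of 13 tubulin cofactors and prefoldin subunits, which carry nascent tubulin and build the heterodimer, 11 were higher in HuES64, with a median of -0.19. With TPM scaling 6 of 13 were, but 12 of 13 in the deposited values and 11 of 13 with TPM scaling lay below the all-gene median. Removing the GC and length trend left 9 of 13, with a median of -0.35. ARL2, a small GTPase of the cofactor complex, was measured at 166 FPKM in HuES53 against 282 in HuES64, TBCB at 75.1 and 119, PFDN5 at 357 and 527, and TBCA, a beta tubulin cofactor, at 332 and 378. ARL2 and TBCB overlap other rows. Of the 8 subunits of the CCT chaperonin, which folds tubulin and actin, 5 were higher in HuES64 (2 with TPM scaling, 8 with the GC and length trend removed), with a median of -0.031, or -0.18 with that trend removed. Below the all-gene median lay 5 of the 8 in the deposited values and 5 with TPM scaling. CCT7 stood at 309 and 434 FPKM, CCT3 at 373 and 376, CCT4 at 271 and 309, and CCT2 at 187 and 222. Of these, CCT3 overlaps another row. No gene of either list was 2-fold different.

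Of 13 genes of the gamma tubulin ring complex and its anchors, 5 were higher in HuES64 (1 with TPM scaling, 7 with the GC and length trend removed), with a median of 0.076, or -0.014 with that trend removed. Below the all-gene median lay 5 of the 13 in the deposited values and 5 with TPM scaling. MZT2B, a small subunit, stood at 63.1 and 116 FPKM, its near copy MZT2A at 88.3 and 100.1, MZT1 at 41.2 and 38.8, and NEDD1, which recruits the complex, at 15.4 and 10.1. MZT2B overlaps the row of SMPD4, and MZT2A overlaps a microRNA row. Of 21 expressed genes of microtubule dynamics, 18 were higher in HuES53, also with the GC and length trend removed (21 with TPM scaling, 16 with median of ratios scaling), with a median of 0.25. Below the all-gene median lay 5 of the 21 in the deposited values and 3 with TPM scaling. The plus-end protein gene MAPRE2 stood at 28.1 and 16.9 FPKM and MAP7 at 27.1 and 16.7. STMN1, whose product binds free tubulin dimers, was the highest of the list and was higher in HuES64, at 407 and 461 FPKM. A microRNA row overlaps STMN1. MAPRE1 (108 and 99.0 FPKM) and TACC3 (81.0 and 80.3 FPKM) were close to level.

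Enzymes that modify tubulin were all expressed below every member except TUBA4A. Of 23 listed, 15 reached a mean of 1 FPKM, and 11 of those were higher in HuES64 (7 with TPM scaling), with a median of -0.15. With the GC and length trend removed 10 were, with a median of -0.089. Below the all-gene median lay 11 of the 15 in the deposited values and 11 with TPM scaling. VASH2, which removes the last tyrosine of alpha tubulin, was measured at 65.6 FPKM in HuES53 against 53.3 in HuES64. Its partner SVBP, listed as CCDC23, stood at 41.1 and 64.4 FPKM, and TPGS2, a polyglutamylase subunit listed as C18orf10, at 65.5 and 71.9. SVBP overlaps the row of ERMAP, and TPGS2 that of KIAA1328. The acetyltransferase gene ATAT1 stood at 9.41 and 14.6 FPKM. Of the 3 genes of tubulin mRNA feedback, TTC5 was at 6.91 and 9.27 FPKM, SCAPER at 2.78 and 1.93, and CNOT11, listed as C2orf29, at 35.6 and 29.6. SCAPER overlaps a microRNA row. None of the genes in these lists was 2-fold different.

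**Figure D5:**
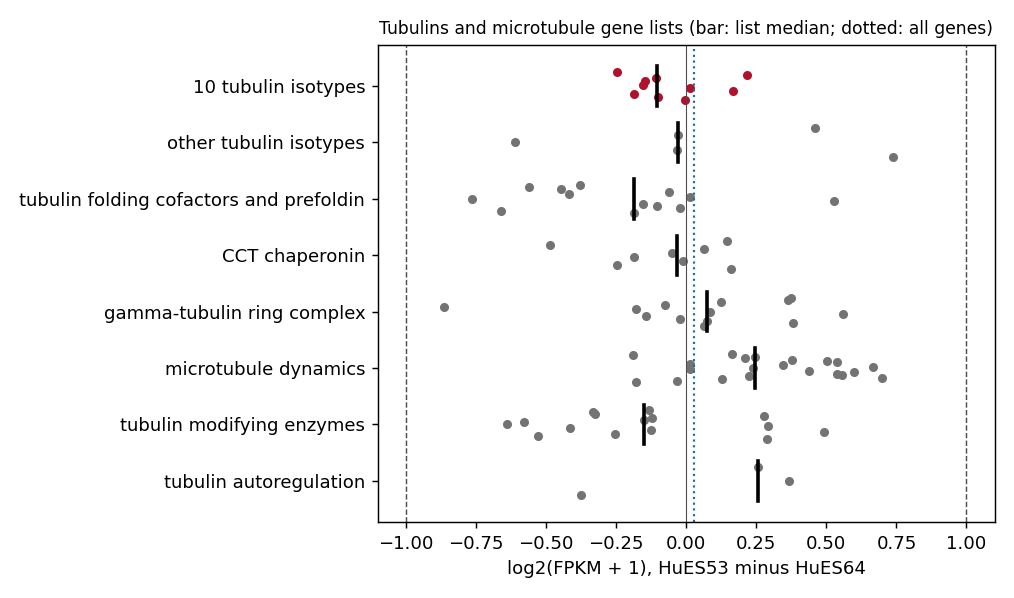
Difference between the lines (horizontal axis, log2 of FPKM + 1, HuES53 minus HuES64) for the 10 tubulin isotypes (red) and 7 lists of related genes (grey), each point a gene whose mean reached 1 FPKM. Black bars are list medians, the dotted line is the median of all genes at 0.026, dashed lines mark 2-fold, and the vertical spread within a list has no meaning; no point reaches 2-fold.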

How the data were processed

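Polyadenylated RNA of 1 library per line was sequenced after an Illumina TruSeq preparation, per the labels' protocols. The authors deposited 1 table of FPKM values with a symbol and locus per row. TopHat2 2.0.4 and Cufflinks 2.0.2 appear in the submitters' processing notes, with no role stated. For the genome build, annotation, strand setting, read length and handling of shared reads: not given in the sources used here. Printed loci count from 1 and keep the table's own build: read as counted from 0 in the file, 1253 of 1288 microRNA genes had their reference length. Members matched 0 start positions of GRCh38, and nothing was converted.

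The 136 rows of chromosome Y were left out and rows sharing a symbol were summed (21 symbols). Differences use a pseudocount of 1 FPKM, which understates low genes, over 13790 genes whose mean reached 1 FPKM. No test was possible with 1 library per line. The depth estimate assumes fragments of 200 bases. It was fitted on values under 6 fragments at loci under 1100 bases. The scale kept was that with the highest share of values within 3% of whole numbers, 18 of 21 and 9 of 12. The fit maximised those shares, so they do not check it. The estimate is approximate and covers counting error only. Fragment numbers of members also assume the reference transcript shown.

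Coding sequences came from 1 principal transcript per gene of GENCODE release 29. The 50-base windows were compared with all its transcripts on both strands, and genes outside the family at the same locus were not counted as elsewhere. The GC and length trend (20 bins of each, 5 rounds, median transcript values) covered 93.6% of genes. Those medians run over all annotated transcripts of a gene, short ones included. TUBB6 was thus binned at 682 bases and TUBB3 at 767, against reference transcripts of 2064 and 1769. TUBB was binned at 2746.5 against 2670. The effect of these lengths on the trend-removed differences was not tested. Members and lists were chosen with earlier results of these data known. Of each list, the text names the 3 genes with the highest mean, the 2 largest differences and any 2-fold gene, together with all tubulin isotypes. Counting of folds was tested on simulated data. Python 3.11.15, pandas 2.3.3 and Biopython 1.88 were used.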

Additional observations from a re-analysis of the deposited data

How the results depend on the processing

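Limits come first: 1 library per line, close copies, overlapping rows and an unstated division of shared reads bound every value. No paired analysis was possible because each line has 1 library. No member reached 2-fold under any of the 10 alternatives run. The differences of all 10 members moved by under 0.1 with the other pseudocounts and with upper quartile or median of ratios scaling. Each of these scalings shifts all genes nearly alike. The other filters and the highest row of a repeated symbol could not change a member difference, since each member has 1 row and passes every filter. Those settings therefore say nothing about how stable the members are.

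TPM scaling moved all 10 differences, to a median of 0.143 with 9 members higher in HuES53; all genes moved with it. Removing the GC and length trend moved 7, to a median of 0.0149 with 6 higher in HuES53. The signs of the members depended on these settings. The 2-fold counts over all genes, 297 higher in HuES53 and 235 in HuES64 (532 in all), were 585, 405 and 990 with a pseudocount of 0.1 FPKM. They were 720 in HuES53 and 902 in all with TPM scaling, where HuES53 held 79.8% of the higher values among 2-fold genes, up from 55.8%. Under a filter at 5 FPKM they were 161 in HuES53 and 320 in all, and with the trend removed 155 in HuES64. Over the member isotypes alone, TUBB3 made up 9.35% of beta tubulin in HuES53 and 9.80% in HuES64. Adding the overlapping rows, an alternative chosen after seeing the data, moved TUBA1B to 55.3% and 57.3% of alpha tubulin and the ratio of alpha to beta to 1.01 and 1.13.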
